A study of Mus musculus with 8 samples.

Results

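Genes that make, remodel and break down phosphatidylcholine (PC) and the other glycerophospholipids were examined in the whole retina of Lpcat1 wildtype (WT) and knockout (KO) mice at 2 weeks of age. Lpcat1 encodes lysophosphatidylcholine acyltransferase 1, which attaches a fatty acid to lysophosphatidylcholine and so produces PC with saturated chains. The 47 genes were chosen by name for their known roles, with earlier results of these data known, out of 20018 genes with a named probe on the array. They cover choline uptake, the synthesis of PC from choline, the synthesis of phosphatidic acid and diacylglycerol, the phospholipases, and lipid transfer between membranes and through the extracellular space. Each genotype was represented by 4 samples, each hybridised to 1 array. The labels give the strain of both groups as C57BL/6. The study describes the KO as global, and per the methods the line had a C57BL6/N background and was crossed with C57BL6/J mice, and mice homozygous for the retinal degeneration allele rd8 were not used. Nothing in the labels says that the samples came from separate animals, so the p-values measure the spread between these samples.

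PC is built by most cells in a chain that starts with choline brought in by transporters, which is phosphorylated, activated to CDP-choline and joined to diacylglycerol. Phospholipases then remove acyl chains to give lysophospholipids, and acyltransferases such as LPCAT1 put new chains back, so the chain composition of a membrane reflects both synthesis and remodelling. Photoreceptors add new disc membrane to their outer segments every day, and these discs are rich in PC and in docosahexaenoic acid. The loss of a remodelling enzyme therefore raised the question of whether transcripts for choline uptake, de novo synthesis, phospholipases or lipid export differed as well.

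Levels are log2 signals minus the 75th percentile of their own array (also log2), and differences are KO minus WT on the log2 scale. A gene was called when the Benjamini-Hochberg adjusted p of limma over all tested probes was under 0.05 and the fold change was over 1.2. Each array had 33110 to 36366 of 55681 probes well above background, signals at the 75th percentile of 638.4 to 737.8, and 0 saturated spots. The WT samples occupied one slide row and the KO samples the second, and this position therefore cannot be told apart from the genotype. Over the array, 992 of 33972 tested probes (2.92%) were called. Lpcat1 itself had a mean ± SD of -0.41 ± 0.03 over the WT arrays and of -0.87 ± 0.06 over the KO arrays (n = 4 each), a difference of -0.46 (adjusted p = 0.0036 by limma), or 72.5% of the WT signal. Where its probe lies relative to the deleted part is not settled here.

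Markers of retinal cell types differed between the genotypes, with 18 of 71 tested markers called (25.4%, and 10 markers without KO replicate 2). Over all 14937 tested genes 3.47% were called, 1.99% higher and 1.49% lower. Of the rod photoreceptor markers 4 of 13 were called lower, and all 13 differences were below 0, with a median of -0.21. In 12 of the 13 all KO arrays lay below all WT arrays, beside 12.4% of all genes. Log2 of the summed level of the rod markers was 11.21 to 11.27 in WT and 10.93 to 11.07 in KO. Of the microglia and macrophage markers 7 of 11 were called higher, with a median of 0.46, and their sum lay at 3.78 to 3.91 in WT against 4.16 to 4.23 in KO. Higher calls were also made for 2 of 8 cone markers (sum 7.70 to 7.73 in WT, 7.88 to 7.95 in KO) and 3 of 9 Müller glia markers (8.42 to 8.49 and 8.67 to 8.70). Of the endothelial markers 2 of 9, Flt1 and Slco1a4, were called higher and 0 lower, while 6 of the 9 differences were below 0, with a median of -0.11, and their sum lay at 5.20 to 5.26 in WT against 5.13 to 5.20 in KO. In markers of the retinal pigment epithelium, oligodendrocytes, lens and blood 0 were called, and Best1, Mobp and Mip of these lists were not well above background in enough arrays to be tested. In whole retina, fewer cells of a type and less RNA per cell cannot be told apart. The part of these shifts in the differences given below was not tested.

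Most of the 47 genes lay close to the WT level in KO retinas. All 47 were well above background on all 8 arrays and were tested. Of them 1 was called, the choline transporter Slc44a1, which was lower, and 0 were called higher, beside a background of 3.47% of 14937 tested genes called (1.99% higher and 1.49% lower). Without the limit on fold, Pla2g7 was added and 2 members passed, beside 6.62% of all genes. At an unadjusted p under 0.05 there were 3 higher and 8 lower members, beside 26.2% of all genes. The KO arrays lay wholly outside the WT range in 9 members, 6 below and 3 above, beside 21.2% of all genes (12.4% below and 8.78% above). By value 26 of 47 members were below 0, beside 57.8% of all genes. These shares of the members, 23.4% and 19.1%, lay near those of the background. The median difference was -0.01 in the members and -0.02 in all genes, and the median of the members lay between -0.01 and 0.02 over the settings for scaling and testing in which all 8 arrays were kept.

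Differences of small size made up most of the list. A difference of at most 0.1 either way was found in 35 of 47 members (74.5%) and in 59.6% of all genes. The 95% confidence interval of the difference lay within 1.2-fold in both directions in 34 members, against 63.6% of all genes. In the other 13 members the interval reached beyond a change of that size. The median standard error (SE) of the difference was 0.046 in the members and 0.054 in all genes, and its part in these shares was not tested.

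**Figure D1:**
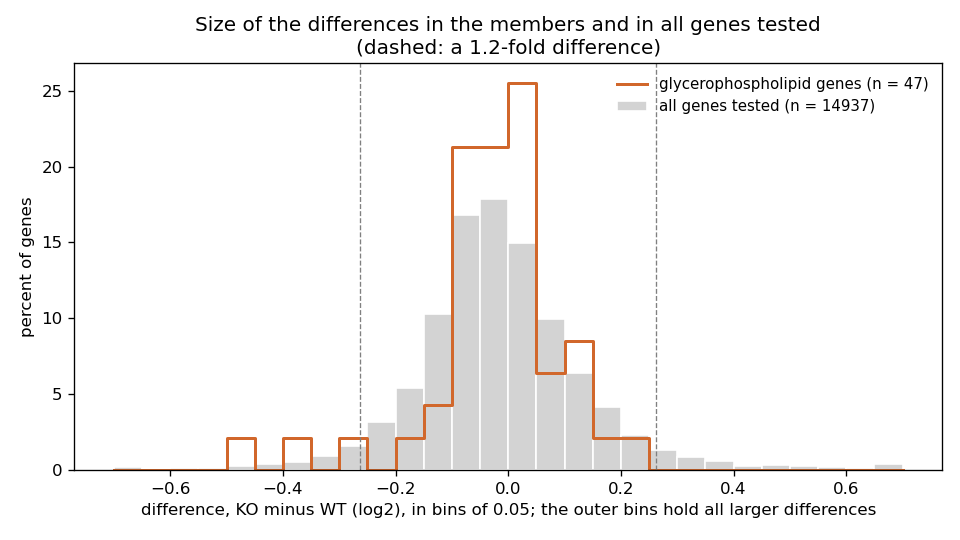
Distribution of the difference between genotypes (KO minus WT, log2, in bins of 0.05) as the percent of genes in each bin, for the 47 glycerophospholipid genes (orange outline) and for all 14937 tested genes (grey bars). The members gather near 0, with 35 of 47 within 0.1, and Slc44a1, Pctp and Pla2g7 form the separate steps at the left.

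Choline enters cells through the choline transporter-like proteins, and Slc44a1 encodes the broadly expressed member of this family. On its brightest probe, Slc44a1 was at 0.51, 0.35, 0.29 and 0.27 in the WT arrays and at 0.15, -0.11, -0.24 and -0.20 in the KO arrays. All 4 KO values lay below all 4 WT values, with KO replicate 1 the closest to the WT range. The difference was -0.46 (SE 0.09, 95% interval -0.67 to -0.24, adjusted p = 0.0344 by limma), or 72.9% of WT. The call did not hold when any 1 array other than KO replicate 1 was left out (adjusted p = 0.0659 to 0.0918 over these 7 fits by limma, and 0.0142 without KO replicate 1). It was also lost with the methods' t-test (adjusted p = 0.0577) and with all probes tested (adjusted p = 0.0982 by limma), while the difference stayed at -0.46 in both.

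The other Slc44a1 probes were lower in KO as well, by less. The second probe was at -0.27, -0.36, -0.42 and -0.36 in WT and at -0.51, -0.67, -0.59 and -0.67 in KO, again with no overlap. Its difference of -0.26 had an adjusted p of 0.0332 by limma but reached 83.5% of WT, just short of the 1.2-fold limit at 83.3%. The third probe, designed on another RefSeq transcript of the gene, was at -0.47, -0.58, -0.52 and -0.69 in WT and at -0.81, -0.63, -0.91 and -0.70 in KO. On this probe the genotypes overlapped (difference -0.20, adjusted p = 0.151 by limma). Over the mean of the 3 probes the difference was -0.31 (adjusted p = 0.0118 by limma).

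The sequence upstream of Slc44a1 is shown because it was the called member, beside that of Pla2g7, whose probes were also lower. Both are the 250 bases before the transcription start, on the + strand, from RefSeq for GRCm38.p6, at chr4:53440163-53440412 (the first of 2 windows listed for Slc44a1) and chr17:43568201-43568450. Capitals were reserved for TGANTCA, the motif bound by AP-1, and CACGTG, the E-box, on either strand, and neither window held one.
Slc44a1: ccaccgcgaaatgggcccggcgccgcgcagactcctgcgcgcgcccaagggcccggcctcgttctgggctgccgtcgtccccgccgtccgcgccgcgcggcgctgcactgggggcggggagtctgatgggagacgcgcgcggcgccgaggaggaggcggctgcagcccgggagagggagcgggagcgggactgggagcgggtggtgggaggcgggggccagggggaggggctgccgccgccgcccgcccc
Pla2g7: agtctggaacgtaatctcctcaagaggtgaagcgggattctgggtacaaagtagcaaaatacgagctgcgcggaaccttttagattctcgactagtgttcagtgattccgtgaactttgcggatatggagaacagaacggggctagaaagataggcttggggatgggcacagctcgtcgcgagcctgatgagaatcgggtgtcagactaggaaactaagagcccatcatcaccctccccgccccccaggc
Among 27025 promoters of the same length, 6.87% held TGANTCA and 6.05% held CACGTG. G and C made up 81.2% of the Slc44a1 window and 52.8% of the Pla2g7 window, against a median of 52% over all promoters.

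Slc44a2, a related transporter of the plasma membrane and mitochondria, was at 1.89, 1.94, 1.95 and 1.94 in WT and at 1.88, 1.83, 1.84 and 1.79 in KO. The KO arrays lay below the WT arrays, but the difference of -0.10 (SE 0.04, interval -0.18 to -0.01) did not pass the adjustment (adjusted p = 0.151 by limma). Its interval lay within 1.2-fold.

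The enzymes that turn choline into PC gave no call. Chka, a choline kinase that catalyses the first step, was at 0.05, 0.22, 0.15 and 0.21 in WT and at 0.15, 0.27, 0.27 and 0.45 in KO. The genotypes overlapped (difference 0.13, SE 0.07, adjusted p = 0.314 by limma), and the highest value was that of KO replicate 4, without which the difference was 0.07. Of its other probes, one gave 0.14 and one gave -0.04, neither called, and the mean over its probes gave 0.08. Chkb, the second choline kinase, was at 3.16, 3.13, 3.10 and 3.18 in WT and at 3.02, 3.02, 3.09 and 3.08 in KO. Its KO values all lay below the WT values by a small margin (difference -0.09, SE 0.04, adjusted p = 0.186 by limma), and with quantile normalization the difference was -0.06.

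Pcyt1a and Pcyt1b encode the phosphocholine enzymes that make CDP-choline from CTP, the regulated step of the pathway. Pcyt1a was at 2.27, 2.29, 2.31 and 2.20 in WT and at 2.29, 2.26, 2.18 and 2.25 in KO. The genotypes overlapped, with KO replicate 3 below and the other KO arrays inside the WT range. The difference of -0.03 (interval -0.12 to 0.07) was 0.0041 with quantile normalization, which moved the median of all genes by 0.025, and ran from -0.05 without WT replicate 4 to -0.0035 without KO replicate 3. Pcyt1b was at -1.34, -1.23, -1.28 and -1.25 in WT and at -1.41, -1.40, -1.33 and -1.29 in KO, with KO replicates 3 and 4 inside the WT range (difference -0.08, SE 0.05, adjusted p = 0.306 by limma), and the difference was -0.05 with normexp background correction. Chpt1, the phosphotransferase that joins CDP-choline to diacylglycerol, was at -1.04, -1.12, -1.06 and -1.06 in WT and at -1.11, -0.98, -1.04 and -0.94 in KO (difference 0.05, interval -0.06 to 0.16), and the difference was 0.03 without KO replicate 4 and 0.08 without KO replicate 1. For Pcyt1a, Pcyt1b, Chkb and Chpt1 the intervals lay within 1.2-fold, and for Chka the upper end, 0.29, lay beyond it.

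**Figure D2:**
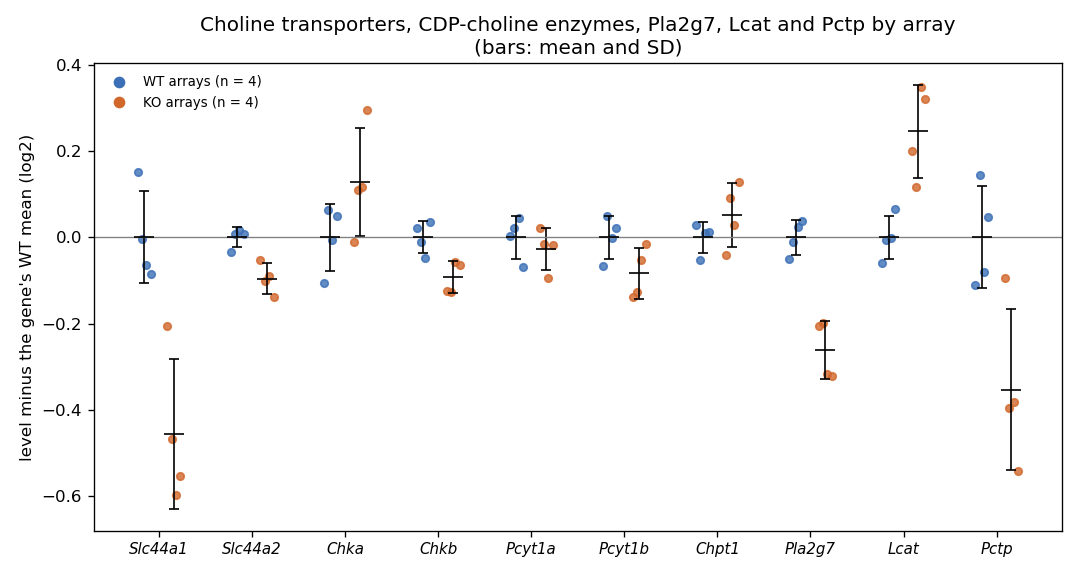
Level of each gene on each array minus the gene's WT mean (log2) for the choline transporters, the CDP-choline enzymes, Pla2g7, Lcat and Pctp, with 4 WT arrays in blue, 4 KO arrays in orange, and the mean and SD as black bars. For Slc44a1 and Pla2g7 all KO arrays lie below and for Lcat all lie above the WT arrays, while those of Pctp overlap at KO replicate 1 and those of Pcyt1a at 3 of 4 KO arrays.

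Among the phospholipases of type A and B, Pla2g7 stood at the edge of the call. It encodes the platelet-activating factor acetylhydrolase, a secreted enzyme that removes short and oxidised acyl chains from PC. On its brightest probe it was at 3.64, 3.68, 3.72 and 3.73 in WT and at 3.49, 3.49, 3.38 and 3.37 in KO. The groups did not overlap, and the difference of -0.26 (SE 0.05, interval -0.37 to -0.16, adjusted p = 0.0229 by limma) left 83.4% of WT, so that it missed the 1.2-fold limit and was not called. The other probe was at 1.91, 1.94, 1.86 and 2.01 in WT and at 1.51, 1.67, 1.69 and 1.75 in KO. This probe was called, with a difference of -0.28 (SE 0.06, adjusted p = 0.0390 by limma). On the brightest probe the call was also reached without WT replicate 1 (-0.28, adjusted p = 0.0474), without KO replicate 1 (-0.28, adjusted p = 0.0297) and without KO replicate 2 (-0.28, adjusted p = 0.0498, all by limma). In the other direction, the adjusted p on this probe was 0.0686 by limma without WT replicate 2, and the difference was -0.24 without KO replicate 4.

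The other phospholipases among the members differed little. The lysosomal enzyme Pla2g15 gave -0.06 (SE 0.04), and this was -0.03 without KO replicate 1 and -0.0091 with normexp background correction. Pla2g4a, which releases arachidonic acid, the calcium-independent enzymes Pla2g6 and Pnpla8, the secreted Pla2g12a, and Pnpla6, which degrades PC to glycerophosphocholine, each differed by less than their SE. The enzymes further down the breakdown route were lower in 6 of 7 by value (85.7%, beside 57.8% of all genes), with a median of -0.08 and 0 calls. Gdpd1, which acts on lysophospholipids, differed by -0.15 (SE 0.06, adjusted p = 0.175 by limma), and the glycerophosphodiesterase Gde1 by -0.11 (SE 0.04, adjusted p = 0.195 by limma), or -0.07 with quantile normalization. Lypla1, a lysophospholipase and thioesterase, differed by -0.09 (SE 0.05) on its brightest probe and by 0.03 on the other, and the brightest probe gave -0.06 without WT replicate 4 while the mean of both gave -0.03. Lypla2, Abhd4, Abhd12 and the glycerophosphocholine phosphodiesterase Gpcpd1 lay within their SE.

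Of the extracellular lipid enzymes, Lcat had the largest higher value among the members. Lcat encodes the plasma enzyme that moves an acyl chain from PC to cholesterol. It was at -3.06, -3.01, -3.00 and -2.94 in WT and at -2.80, -2.88, -2.65 and -2.68 in KO, without overlap. The difference of 0.25 (SE 0.06, interval 0.11 to 0.38, 119% of WT) was not called (adjusted p = 0.0520 by limma), but when the percentile came from probes detected on every array it was called, at 0.27 and an adjusted p of 0.0394. Enpp2, the gene of autotaxin, which makes lysophosphatidic acid from lysophosphatidylcholine, differed by 0.18 (SE 0.08, adjusted p = 0.214 by limma), with overlapping groups. Mfsd2a, the carrier that takes up lysophosphatidylcholine with docosahexaenoic acid, differed by -0.09 (SE 0.08, interval -0.27 to 0.10), and by -0.16 without WT replicate 1, -0.05 without WT replicate 4 and -0.04 without KO replicate 1. None of these 3 intervals lay within 1.2-fold.

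Pctp, which carries PC between membranes in the cytosol, gave the second largest difference by size. It ranged from -3.20 to -2.94 in WT and from -3.63 to -3.18 in KO, where KO replicate 1 lay inside the WT range. This is a dim probe, near the median of all probes on an array (-3.30 to -3.20 in the authors' values). The difference was -0.35 (SE 0.10, interval -0.58 to -0.12) and was not called (adjusted p = 0.0778 by limma). Without KO replicate 1 it was called (-0.44, adjusted p = 0.0300 by limma). It was also called when probes were averaged per gene, where the difference was the same and fewer tests shared the adjustment (adjusted p = 0.0491 by limma), and with normexp background correction the difference was -0.14. Without WT replicate 2 the adjusted p of Pctp was 0.179 by limma, and without KO replicate 4 its difference was -0.29. Pitpna, which exchanges phosphatidylinositol and PC, lay within its SE on both of its probes.

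Genes for phosphatidic acid and diacylglycerol, the backbone of all glycerophospholipids, gave 0 calls among 9, with a median difference of -0.00053. Agpat3, an acyltransferase that makes phosphatidic acid and accepts docosahexaenoic acid, was at 5.12 to 5.14 in WT and 4.93 to 5.08 in KO (difference -0.11, SE 0.04, adjusted p = 0.175 by limma). With quantile normalization the difference of Agpat3 was -0.05 (adjusted p = 0.571 by limma). Agpat5 was lower on all KO arrays (difference -0.09, SE 0.04, and -0.05 with quantile normalization), and Agpat2 overlapped (0.13, SE 0.09, 0.04 without WT replicate 2, and 0.08 with normexp background correction). The lipins dephosphorylate phosphatidic acid to diacylglycerol, and Lpin2 gave 0.09 (SE 0.05), or 0.06 without WT replicate 3, while Lpin3 gave -0.10 (SE 0.07), or -0.04 without WT replicate 1 and -0.03 with normexp background correction. Gpam, Agpat1, Agpat4 and Lpin1 differed by less than their SE. The lowest adjusted p in the group was that of Agpat3.

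Phosphatidic acid is also activated to CDP-diacylglycerol for phosphatidylglycerol and cardiolipin of mitochondria. Pgs1, which makes the precursor of phosphatidylglycerol, was at 4.16 to 4.26 in WT and 4.26 to 4.36 in KO, without overlap although the nearest arrays differed only in the third decimal (difference 0.11, SE 0.04, adjusted p = 0.172 by limma). The CDP-diacylglycerol synthases Cds1 and Cds2 and the cardiolipin synthase Crls1 lay within their SE. Crls1 had the widest interval of those 22 members that differed by less than their SE (-0.27 to 0.40), with KO replicate 2 at 0.77 and the other KO arrays at 0.07 to 0.17.

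Phospholipase D releases choline and phosphatidic acid from PC, and diacylglycerol kinases make phosphatidic acid from diacylglycerol. Dgkz was at 2.16 to 2.27 in WT and 2.28 to 2.37 in KO (difference 0.11, SE 0.04, adjusted p = 0.154 by limma), again without overlap and within 1.2-fold. Dgka gave 0.04 (SE 0.04), with 0.02 without WT replicate 1 and 0.07 without WT replicate 4. Dgke gave -0.06 (SE 0.06), with -0.10 without WT replicate 1, -0.03 without WT replicate 4 or without KO replicate 1, and -0.03 with quantile normalization. Pld1, Pld2 and Pld3 and the peroxisomal enzymes of ether lipid synthesis, Gnpat and Agps, differed by less than their SE. In both groups all intervals lay within 1.2-fold.

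The 22 members that differed by less than their SE are Gpam, Agpat1, Agpat4, Lpin1, Cds1, Cds2, Crls1, Pla2g4a, Pla2g6, Pla2g12a, Pnpla6, Pnpla8, Lypla2, Abhd12, Abhd4, Gpcpd1, Pld1, Pld2, Pld3, Pitpna, Gnpat and Agps. Their differences ran from -0.08 to 0.07. For 19 of them the interval lay within 1.2-fold, and the widest intervals reached -0.30 for Gpcpd1 and 0.40 for Crls1.

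**Figure D3:**
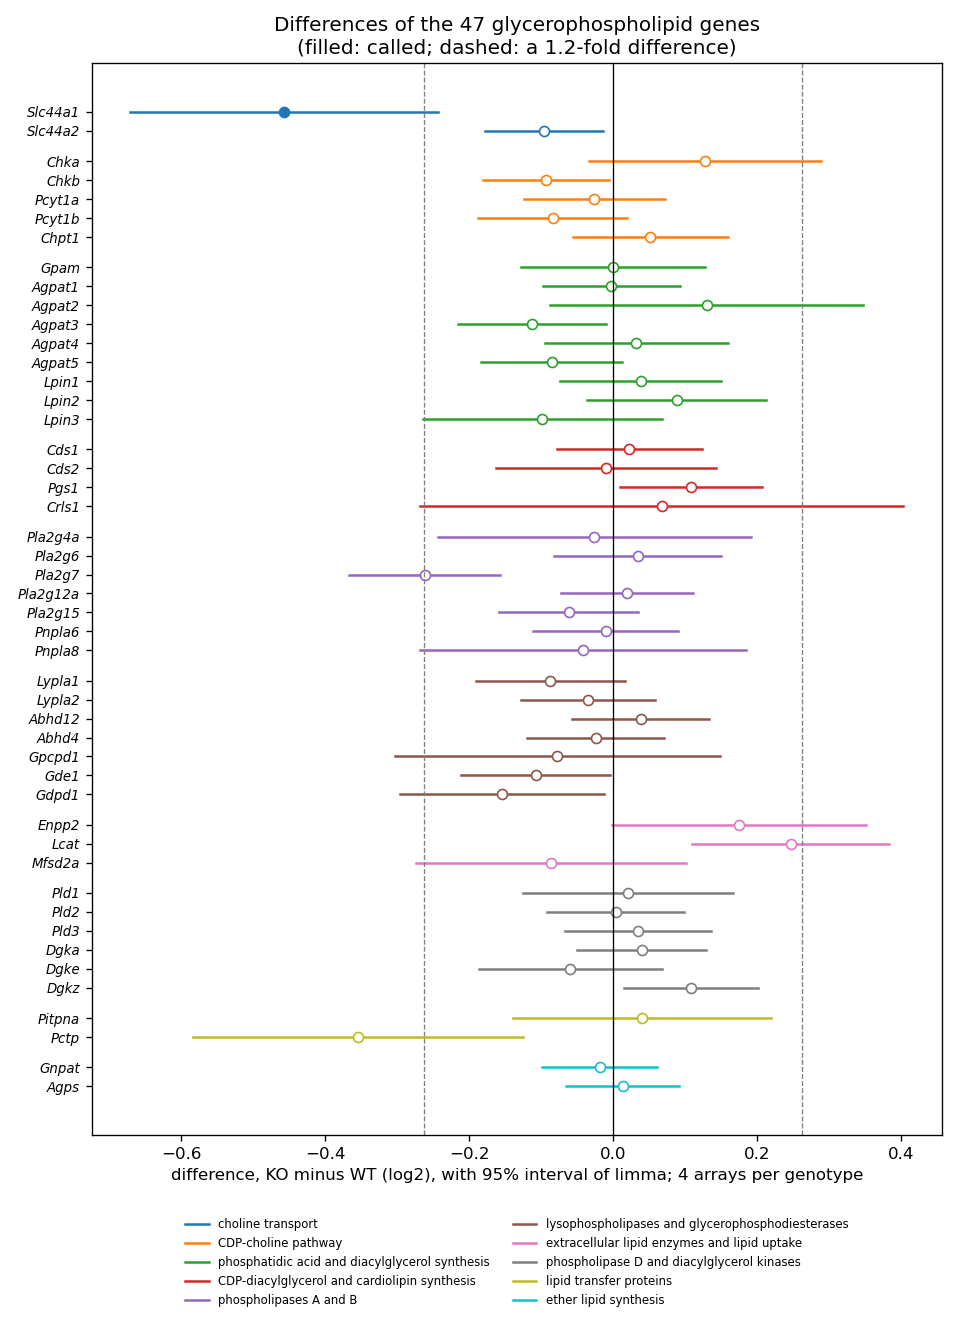
Difference between genotypes (KO minus WT, log2) with its 95% interval for each of the 47 genes, coloured by role, with filled points for called genes and dashed lines at a 1.2-fold difference. Slc44a1 at -0.46 is the filled point, and Pctp at -0.35, Pla2g7 at -0.26 and Lcat at 0.25 are the other members farthest from 0.

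More than 1 probe was tested for Slc44a1, Chka, Lpin1, Pla2g7, Lypla1, Lypla2 and Pitpna. The sign was the same on all tested probes of Slc44a1, Lpin1, Pla2g7 and Lypla2, and it differed between probes for Chka, Lypla1 and Pitpna, with no call among their probes. The call differed between the probes of Slc44a1 and of Pla2g7.

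**Figure D4:**
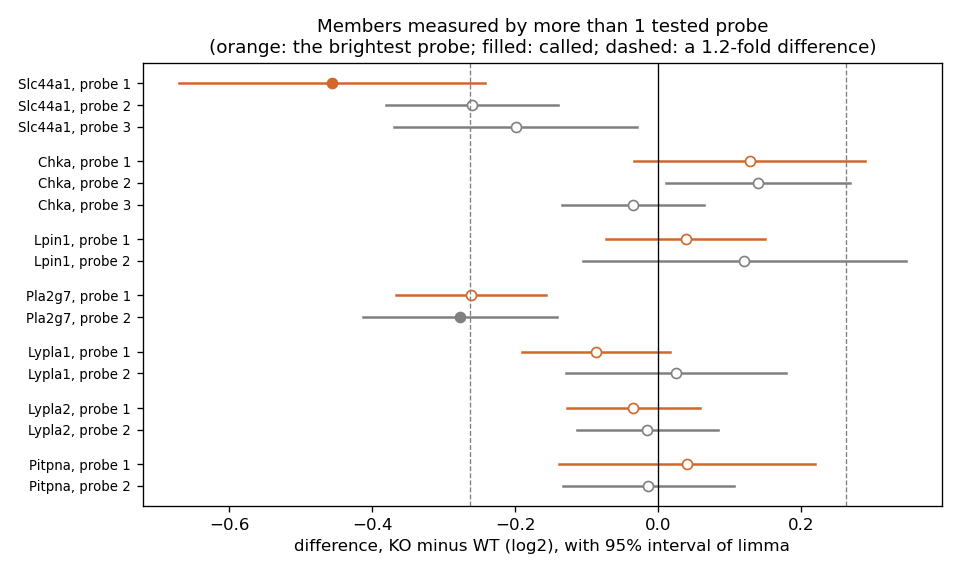
Difference between genotypes (KO minus WT, log2) with its 95% interval for every tested probe of the members with more than 1, with the brightest probe in orange, filled points for called probes and dashed lines at a 1.2-fold difference. The 3 probes of Slc44a1 and both of Pla2g7 lie below 0, each gene with 1 probe called.

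Other genes of glycerophospholipid metabolism were set beside the members as a list of 85, of which 82 had a probe and 74 were tested. Of these 3 were called higher and 3 lower (8.11% in all), beside the 3.47% of all genes. The genotypes did not overlap in 24 (32.4%), beside 21.2% of all genes. Slc44a4, Pla2g2e, Pla2g4f, Pla2g10, Pla2g12b, Abhd3, Lipg and Far2 were not well above background in enough arrays, and Tafazzin, Peds1 and Far1 were not matched to a probe. The median difference of the 74 was -0.03. The count of 6 calls fell to 3 without WT replicate 1, WT replicate 2, WT replicate 4, KO replicate 2 or KO replicate 4, each left out alone. Of the 20 phospholipases and lysophospholipases tested in this list 0 were called. Their differences were below 0 in 12 (60%, beside 57.8% of all genes) and above 0 in 8. Ddhd1 (-0.26, adjusted p = 0.0432) and Pla2g5 (-0.18, adjusted p = 0.0385, both by limma) were lower without overlap and missed the 1.2-fold limit.

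The lower calls included another choline transporter-like gene, Slc44a5. It was at -0.80, -0.79, -0.86 and -0.87 in WT and at -1.11, -1.34, -1.04 and -1.23 in KO, below all WT arrays (difference -0.35, SE 0.07, adjusted p = 0.0316 by limma). With normexp background correction it was -0.23 and not called, and it was called in only 2 of the fits that left out an array, those without KO replicate 1 or KO replicate 3. The choline transporters Slc5a7, Slc44a3, Flvcr1 and Flvcr2 differed by -0.02 to 0.07 and were not called. Tmem86a, a lysoplasmalogenase that breaks down ether lipids, was at 2.72, 2.61, 2.64 and 2.69 in WT and at 2.41, 2.23, 2.22 and 2.20 in KO (difference -0.40, SE 0.06, adjusted p = 0.0132 by limma), and it remained called whichever array was left out. Plpp2, a lipid phosphate phosphatase, was at 5.44, 5.35, 5.40 and 5.51 in WT and at 5.25, 5.06, 5.10 and 5.02 in KO (difference -0.32, SE 0.06, adjusted p = 0.0284 by limma). Its call held without KO replicate 1 (adjusted p = 0.0168 by limma) and was lost without any other array (0.0643 to 0.0819), and with quantile normalization it was lost at -0.24 (adjusted p = 0.0648 by limma). With the replicate number as a block, Plpp2 and Slc44a5 were not called (adjusted p = 0.0659 and 0.0723 by limma).

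Of the higher calls, Apoe, the apolipoprotein that carries lipids between cells, was at 6.45, 6.45, 6.55 and 6.52 in WT and at 6.74, 6.76, 6.80 and 6.81 in KO (difference 0.29, SE 0.04, adjusted p = 0.0122 by limma). Apoe is also on the list of Müller glia markers, of which 3 of 9, Apoe among them, were called higher. Plscr1, a phospholipid scramblase, was at -0.20, -0.06, -0.07 and -0.04 in WT and at 0.17, 0.27, 0.33 and 0.31 in KO (difference 0.36, SE 0.05, adjusted p = 0.0144 by limma), and its second probe was called as well (0.26). Apoe and Plscr1 remained called whichever array was left out. Both belong to the list of lipid transfer, flippases and export, of which 20 genes were tested and 0 were called lower. In that list 12 differences were below 0 (60%, beside 57.8% of all genes) and 8 above. Abcg1 (-0.22, adjusted p = 0.0217), Stard7 (-0.20, adjusted p = 0.0341) and Pitpnm1 (-0.19, adjusted p = 0.0324, all by limma) were lower without overlap. These genes missed the 1.2-fold limit. Pld5, a protein of the phospholipase D family, was at -4.24, -4.17, -4.01 and -4.30 in WT and at -3.63, -3.82, -3.96 and -3.78 in KO (difference 0.39, SE 0.09, adjusted p = 0.0420 by limma). Its call was lost whichever array was left out (adjusted p = 0.0516 to 0.103 by limma), its second probe gave -0.05, and the difference was 0.20 with normexp background correction and 0.17 as the mean of its probes. With the replicate number as a block its adjusted p was 0.103 by limma.

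**Figure D5:**
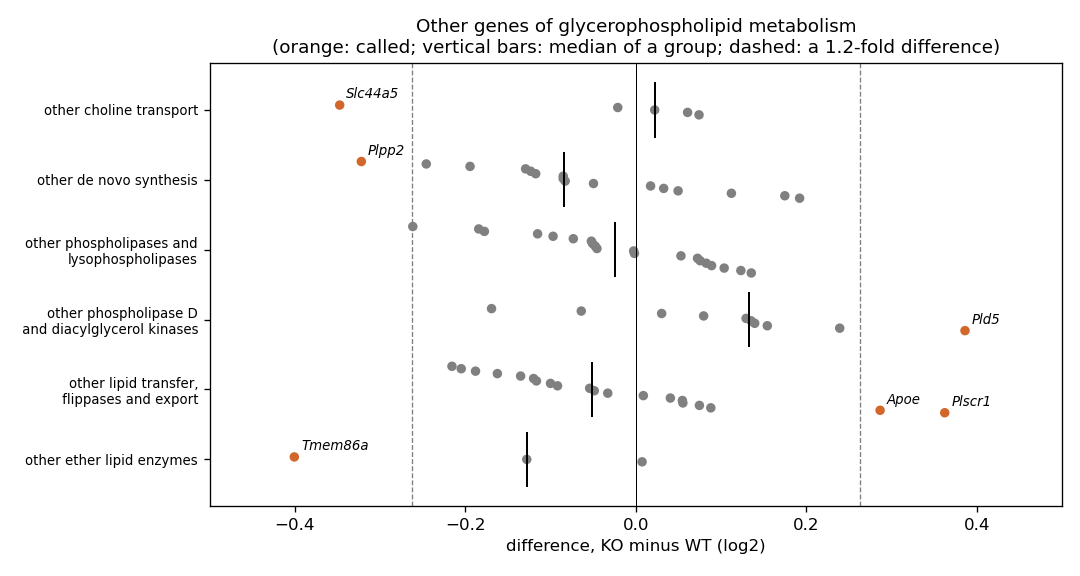
Difference between genotypes (KO minus WT, log2) of each of the 74 other genes of glycerophospholipid metabolism, in rows by role, with called genes in orange, the median of each row as a black bar and dashed lines at a 1.2-fold difference. Slc44a5, Plpp2 and Tmem86a lie to the left of the limit, and Pld5, Plscr1 and Apoe to the right.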

How the data were processed

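Whole-retina total RNA of 8 samples, 4 per genotype as labelled, was measured. Per the labels, each was Cy3-labelled and hybridised by the authors to a 1-colour SurePrint G3 mouse array from Agilent, and quantified with Feature Extraction (version 10.7.1.1). The deposited scanner files give intensity on a linear scale, background-subtracted and not scaled between arrays. The deposited series table holds the authors' values on a log2 scale after a 75th percentile shift. They were compared with the levels computed here over 55249 probes with 1 spot each, with flagged spots kept. On each array the difference was a fixed offset of 0.12 to 0.15. The authors' values served as an alternative. All arrays shared 1 scan.

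Each level was the log2 processed signal, shifted so that the 75th percentile of 59305 non-control spots of the array was 0. Spots flagged as outliers were left out (86 to 147 per array), and repeated spots were averaged. A probe had to be well above background on every array of the WT or of the KO group, which kept 33972 of 55681. Symbols came from a RefSeq table (GRCm38.p6) by transcript accession without version and named 26413 probes. The array's design used mm9, so the table served for names only. For several probes of a gene, the one with the highest mean over 8 arrays was used. The genotypes were tested with limma 3.58.1 (R 4.3.3; lmFit, then eBayes) with no covariate, and p-values were adjusted by Benjamini-Hochberg over the tested probes. The number of arrays limits the precision. Every member is accounted for by role, with the values of each array given for called members, for members without overlap that differed by over 0.2, and for the choline transporters and CDP-choline enzymes, and other values by difference or range. The members and lists were chosen with earlier results of these data known. No per-sample column was left unmapped (0 columns). The alternatives are those named in the closing section, and the fits were tested on simulated data.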

Additional observations from a re-analysis of the deposited data

Results flagged for a closer look

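In 108 groups of 4 arrays (54 genes in 2 genotypes), 5 held an array far from the other 3, where the gap to the nearest array exceeded Dixon's 95% critical value as a share of the range. Chance marks about 1 in 20 such groups. Agpat5 was at 2.79 in WT replicate 4 and at 2.68 to 2.69 in the other WT arrays. Abhd4 was at 5.24 in WT replicate 1 and at 5.31 to 5.32 in the others. Crls1 was at 0.77 in KO replicate 2 and at 0.07 to 0.17 in the other KO arrays. Among the other genes of the pathway, Tmem86a was at 2.41 in KO replicate 1 and at 2.20 to 2.23 in the other KO arrays, and Plscr1 was at -0.20 in WT replicate 1 and at -0.07 to -0.04 in the other WT arrays. Of these genes Tmem86a and Plscr1 were called, and both remained called without the array that stood apart.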

How the results depend on the processing

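The count of members called was 1 in the reported setting. It was 0 with no filter on dim probes, with the methods' t-test, with a minimum fold of 1.5 and with the probe of lowest adjusted p, 2 with the percentile over probes detected on all arrays and with no minimum fold, 3 with probes averaged per gene (Slc44a1, Pla2g7 and Pctp), and 0 to 3 when an array was left out. Calls at the reported setting were 6 for the other pathway genes, 18 for the markers and 992 for all probes. With no filter these were 0, 7 and 246. With a minimum fold of 1.5 they were 0, 1 and 138, and with no minimum fold 13, 28 and 1869. Leaving out an array gave 3 to 6, 10 to 20 and 369 to 1183. The median difference of the members, -0.0094, was 0.018 with quantile normalization, 0.0010 with a median shift, 0.0098 with the percentile over detected probes and 0.0027 with the authors' values, and -0.024 to 0.0086 when an array was left out. The median of all genes moved by at most 0.025. Pcyt1a went from -0.03 to 0.0041 with quantile normalization, the setting of that largest move of all genes. With no filter more probes share the adjustment, and with the mean of probes fewer do.

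With the replicate number as a block, 3 other pathway genes (not Slc44a5, Plpp2 and Pld5), 9 markers and 395 probes were called, while the call of Slc44a1 was kept (adjusted p = 0.0378 by limma). The labels give the numbers as replicate numbers and do not say whether they mark a pairing. Same-numbered arrays of the genotypes deviated together with r of 0.25, 0.069, 0.037 and 0.11, and 3 of 4 correlated best with their own number. What same-numbered arrays share was not tested. The other alternatives, normexp background correction (run on median signals), flagged spots kept, a stricter filter on dim probes and limma with a trend and robust eBayes, left each count of calls within 1.5 times its reported value.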
